A study of Mus musculus with 4 samples.

Results

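NF-kB is a family of transcription factors that act as pairs of subunits, and 9 of its genes are described here across the cells sorted as group 2 innate lymphoid cells (ILC2s). They were chosen by name, with earlier results of these data known. They are the subunits *Nfkb1*, *Nfkb2*, *Rel* and *Relb*, the inhibitors *Nfkbia* and *Tnfaip3*, and *Nfkbid*, *Nfkbiz* and *Bcl3*, which encode relatives of the inhibitors that work in the nucleus. Of the 9, 6 were present among the 2629 genes of a marker table of 10 ILC2 subclusters, and 5 were present among the 1679 genes of a marker table of 21 cell types. *Nfkb1*, *Nfkb2* and *Bcl3* were in neither table, *Relb* was in the first alone, and the other 5 were in both. These counts are not comparable, since the first table holds 18.3% of the features its p-values were adjusted for and the second 84.0% of its 2000.

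The cells came from wild-type BALB/c mice, 8 weeks old by the study's methods. The mice received intraperitoneal PBS or recombinant IL-33 (rIL-33, 0.5 µg) once a day for 5 days, and cells from liver and lung were sorted as lineage-negative CD127+Thy1+ST2+ and their RNA was sequenced cell by cell from the 3' end of transcripts in droplets. Liver and lung of rIL-33 mice, and liver and lung of PBS mice, made 4 groups of 1 library each, and by the study's methods the tissues of several mice were pooled in each group. Both tables pool the 4 libraries, so no value below separates treatment, organ or library, and none has a replicate. The tables themselves give no sequencing depth and no cell numbers. Numbers from other sources were not used here, and no counting interval is given.

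In a resting cell, NF-kB pairs are held in the cytoplasm by IkB proteins, and signals from receptors of the IL-1, TNF and antigen receptor families lead to destruction of IkB and entry of NF-kB into the nucleus. The IL-33 receptor ST2, by which these cells were sorted, is one of these receptors. Several inhibitors, among them the products of *Nfkbia* and *Tnfaip3*, are themselves encoded by NF-kB target genes, so that their transcripts are commonly read as a trace of recent signalling.

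A row of a table, 1 gene in 1 cluster, is called a listing. It exists where the gene's average was higher in the cluster than in all other cells of the table, by at least 0.25 on a log2 scale in the authors' deposited column, and every listed p-value before adjustment was under 0.01. Each listing gives the percentage of cells above 0 inside the cluster and outside it. A missing listing can mean lower, unchanged, too rare, not tested, or higher without reaching that p-value, which is harder to reach in a small cluster. As a common base for the subclusters, the authors' fold change and the solved size of the cluster were converted into a level relative to all ILC2s, as the log2 of a ratio of means to each of which 1 had been added. This understates differences of genes with a low mean.

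Because several of these genes were listed together, the stretches before their transcription starts (RefSeq, GRCm38.p6) were searched for the NF-kB consensus: 3 G, a purine, 2 bases of any kind, 2 pyrimidines and 2 C, on both strands. Windows of 250 bases were found for 6 of the 9 genes, all but *Nfkb1*, *Relb* and *Nfkbiz*. For *Nfkbia*, the gene with the widest listing, the whole window is shown (GRCm38 chr12:55492648-55492897, minus strand, 5' to 3'), which lies upstream of the annotated gene. Capitals mark the match, which begins at position -29 from the start.

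*Nfkbia*: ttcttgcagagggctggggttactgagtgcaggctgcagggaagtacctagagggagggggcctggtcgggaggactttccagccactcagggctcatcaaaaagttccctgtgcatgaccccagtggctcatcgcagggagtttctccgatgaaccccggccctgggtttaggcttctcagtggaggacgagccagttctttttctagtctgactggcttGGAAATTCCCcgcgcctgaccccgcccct

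The other sites shown carry up to 10 bases on each side, with the match in capitals, or 2 overlapping matches where 11 capitals stand together. They set the sites of listed members beside those of *Nfkb2*, which was never listed. They lie at chr10:19015516-19015545 and chr10:19015411-19015432 (minus strand, *Tnfaip3*, before its first RefSeq start and in an intron of a longer annotated transcript), chr7:30422170-30422199 and chr7:30422215-30422244 (plus strand, *Nfkbid*, before its second start, intron), chr11:23771042-23771071 (minus strand, *Rel*, upstream of the gene) and, for *Nfkb2* (plus strand), chr19:46304688-46304717, chr19:46304716-46304736, chr19:46305449-46305478 and chr19:46305695-46305724, in an untranslated exon of an annotated transcript except for site 3, which lies in an intron.

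*Tnfaip3* site 1: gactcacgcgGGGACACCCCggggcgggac

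*Tnfaip3* site 2: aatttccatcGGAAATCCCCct

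*Nfkbid* site 1: gccccgccctGGGACTTCCCagagcaccac

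*Nfkbid* site 2: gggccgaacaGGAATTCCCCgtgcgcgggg

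*Rel* site: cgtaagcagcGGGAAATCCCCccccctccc

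*Nfkb2* site 1: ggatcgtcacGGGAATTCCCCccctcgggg

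*Nfkb2* site 2: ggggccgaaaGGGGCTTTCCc

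*Nfkb2* site 3: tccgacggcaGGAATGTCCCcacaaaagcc

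*Nfkb2* site 4: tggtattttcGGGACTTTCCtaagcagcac

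The *Nfkbid* and *Nfkb2* genes have 3 windows each and *Tnfaip3* has 2. A match was found in 7 of the 11 windows and in 5 of the 6 genes, and none was found for *Bcl3*. Of all 32851 windows of this length, 7.25% held a match. The windows of the members had a GC content from 46.4% to 77.6%, against a median of 52.4% over all windows, and the part of base composition in these counts was not tested. A match is a description of letters, and listed genes (*Nfkbia*, *Tnfaip3*, *Nfkbid*, *Rel*) and an unlisted one (*Nfkb2*) both had it.

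**Figure D1:**
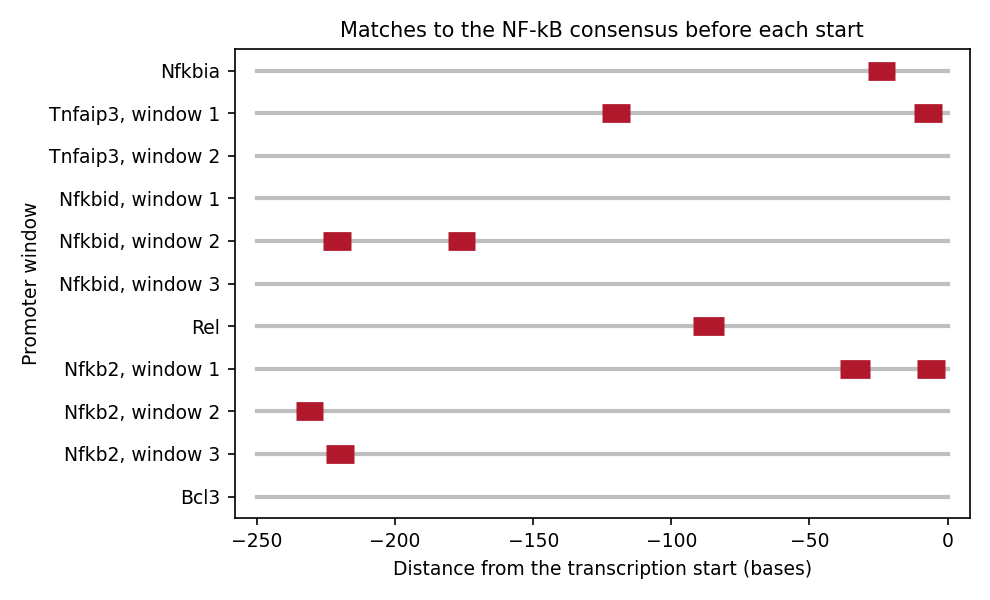
Matches to the NF-kB consensus in the 250 bases before each annotated start of 6 members; the x axis gives the distance from the start in bases, each grey line is 1 window and each red block is a match on either strand, with overlapping matches merged. *Nfkbia* has 1 match, at -29, *Nfkb2* has at least 1 in each of its 3 windows, and *Bcl3* has none.

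Among ILC2s, the inhibitors *Nfkbia* and *Tnfaip3* were listed for subclusters 1, 3 and 8, and the subunits *Rel* and *Relb* for subclusters 1, 7 and 9. Of the 6 members in the table, subcluster 1 listed *Nfkbia*, *Nfkbid*, *Tnfaip3* and *Rel*, 4 of 6, where 13.8% of all genes in the table were listed for it. Subcluster 3 listed *Nfkbia*, *Nfkbid*, *Tnfaip3* and *Nfkbiz*, also 4 of 6, against 9.01% of all genes. Subcluster 8 listed *Nfkbia* and *Tnfaip3*, 2 of 6, against 9.62%. *Rel* was the 1 member listed for subcluster 7 (10.3% of all genes) and *Relb* the 1 listed for subcluster 9 (7.57%). Subclusters 0, 2, 4, 5 and 6 listed none. A gene is in the table only if some subcluster listed it, which holds for the members and for all genes. *Nfkbiz* is there through subcluster 3 alone and *Relb* through subcluster 9 alone, and *Nfkb1*, *Nfkb2* and *Bcl3* are not in it. The median log2 fold change of the 12 member listings was 0.45 by the authors' deposited values, against 0.39 over all 3745 listings there.

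By the solved sizes, subcluster 1 made up 20.1% ± 0.0166 (standard error of the fit) of the ILC2s and subcluster 3 made up 14.9% ± 0.0315. This error is of the fit alone and holds no variation between cells, mice or libraries. Subclusters 7, 8 and 9 were small, at 1.42% ± 0.0144, 0.668% ± 0.0164 and 0.611% ± 0.0206, so their values rest on the fewest cells.

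*Nfkbia* (GRCm38 chromosome 12, 55489410 to 55492647, minus strand, protein-coding) encodes IkB-alpha, the classical cytoplasmic inhibitor. It was found in 91.5% of all ILC2s. In subcluster 1 it was found in 97.3% of the cells against 90.1% of the other ILC2s, and its log2 fold change was 0.90 by the authors' deposited values. The corresponding shares were 98.9% against 91.5% in subcluster 8, at a log2 fold change of 0.81, and 95.4% against 90.8% in subcluster 3, at 0.47, in the same table. On the common base, the log2 level was 0.80 in subcluster 8, 0.67 in subcluster 1 and 0.39 in subcluster 3, and -0.44 in the 7 remaining subclusters together. In these 7, 88.8% of the cells had the gene. *Nfkbia* ranked 26th by log2 fold change among the 363 genes of subcluster 1, 19th of 253 in subcluster 8 and 100th of 237 in subcluster 3.

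*Tnfaip3* (chromosome 10, 19000910 to 19015657, minus strand, protein-coding) encodes A20, a ubiquitin-editing enzyme that stops signalling upstream of IkB. It was listed for the same 3 subclusters, in another order. In subcluster 3 it was found in 93.0% of the cells against 76.7% of the others, with a log2 fold change of 0.91 by the authors' deposited values. Subcluster 8 had 93.3% against 79.0%, and subcluster 1 had 88.8% against 76.7%, with log2 fold changes of 0.49 and 0.36 there. The log2 level relative to all ILC2s was 0.73 in subcluster 3, 0.48 in subcluster 8 and 0.28 in subcluster 1, against -0.36 in the other 7 together. *Nfkbia* was thus lowest of the 3 where *Tnfaip3* was highest, without a test, since there is no replicate. *Tnfaip3* ranked 20th of 237 genes in subcluster 3 and 203rd of 363 in subcluster 1.

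**Figure D2:**
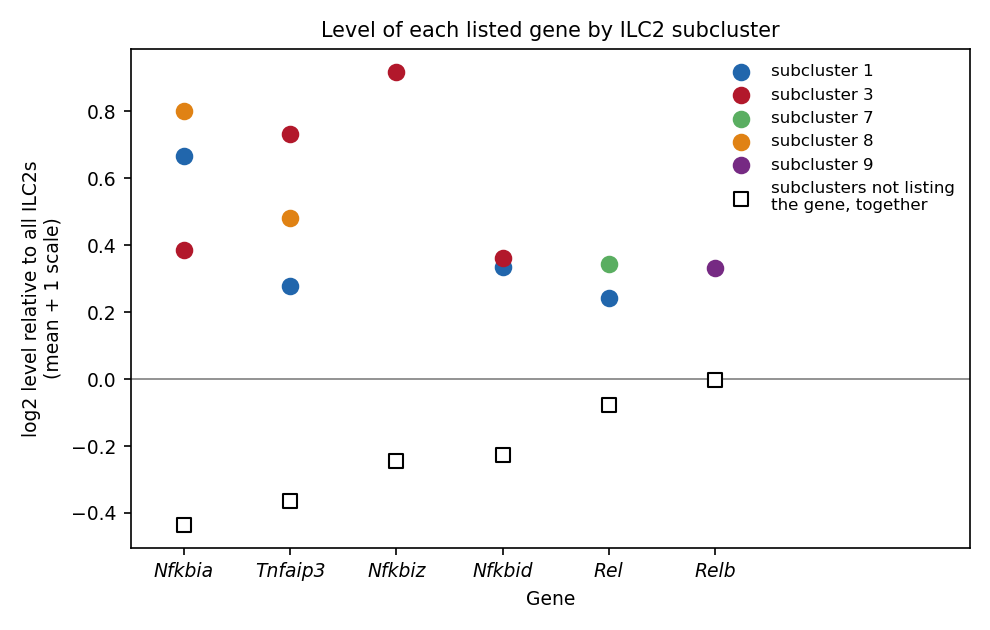
Level of each listed member by ILC2 subcluster; the y axis is the log2 of the mean plus 1 relative to all ILC2s, coloured points are subclusters that list the gene, and open squares are all remaining subclusters together. For *Nfkbia* subcluster 8 is highest (0.80) and subcluster 3 lowest (0.39) of the listed, while for *Tnfaip3* subcluster 3 is highest (0.73); no error is drawn, since there is 1 value per cluster.

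The nuclear members differed from each other. *Nfkbiz* (chromosome 16, 55811375 to 55838899, minus strand, protein-coding), which encodes IkB-zeta, a nuclear cofactor of NF-kB at a subset of its targets, was listed for subcluster 3 alone. It was found in 80.0% of the cells there against 57.5% of the other ILC2s, with a log2 fold change of 1.16 by the authors' deposited values, the largest of the 12 listings. It ranked 11th among the 237 genes of that subcluster, and its log2 level was 0.92 there against -0.24 in the 9 other subclusters together. Subcluster 3 held 19.6% of the ILC2s that had *Nfkbiz*.

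*Nfkbid* (chromosome 7, 30421732 to 30428746, plus strand, protein-coding), which encodes IkBNS, another nuclear member, was listed for subclusters 1 and 3. It was found in 49.7% of subcluster 1 cells against 32.3% of the others, and in 43.9% of subcluster 3 against 34.4%. The log2 fold changes of 0.43 and 0.44 by the authors' deposited values, and log2 levels of 0.34 and 0.36, were alike in size. In the 8 subclusters that did not list it, 29.7% of the cells had it. *Bcl3* (chromosome 7, 19808462 to 19822770, minus strand, protein-coding), a further nuclear member, was not listed.

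Of the subunits, *Rel* (chromosome 11, 23736847 to 23770970, minus strand, protein-coding) encodes c-Rel, which carries its own activation domain and is prominent in lymphocytes. It was found in 21.8% of all ILC2s. In subcluster 7 its share was 49.5% against 21.4% of the others, 2.31 times as high, and in subcluster 1 it was 30.7% against 19.6%. The log2 fold changes were 0.35 and 0.31 by the authors' deposited values. The shares of both subclusters lay above that of the 8 others together, 19.0%. *Relb* (chromosome 7, 19606217 to 19629438, minus strand, protein-coding), the partner subunit of the non-canonical branch, was listed for subcluster 9, with 46.9% of the cells against 29.6% and a log2 fold change of 0.33 by the authors' deposited values. This listing missed the adjusted p-value cutoff of 0.05 there, which the 11 others met. *Nfkb1* (chromosome 3, 135584655 to 135691547, minus strand) and *Nfkb2* (chromosome 19, 46304320 to 46312385, plus strand), both protein-coding, encode the precursors p105 and p100 and were not listed.

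**Figure D3:**
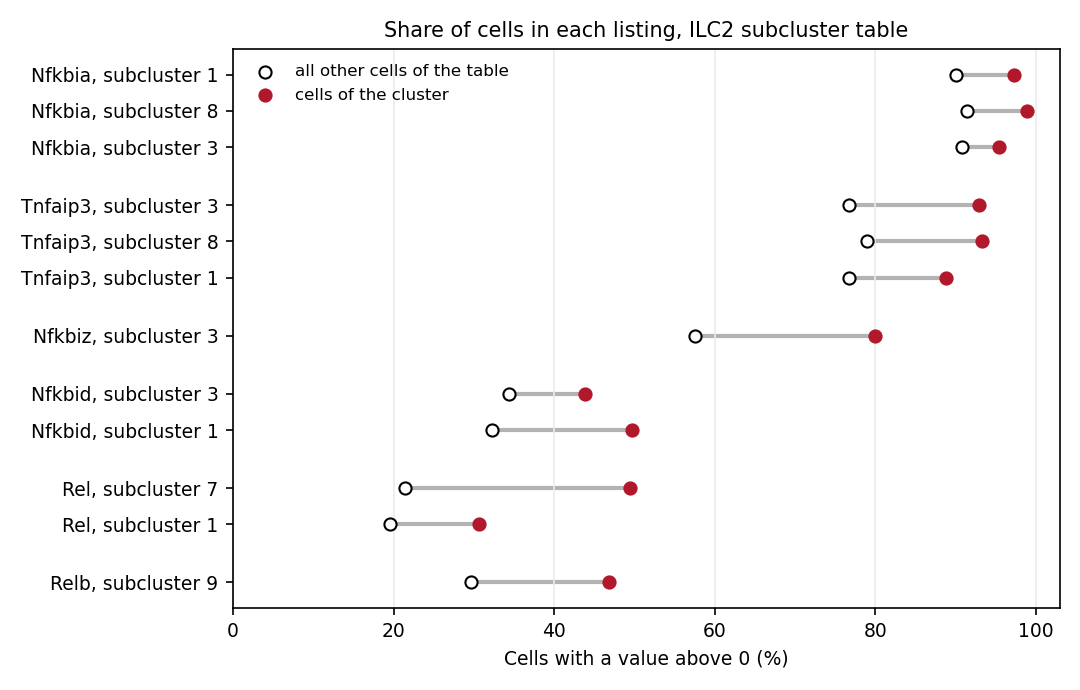
Percentage of cells above 0 for each of the 12 member listings of the ILC2 subcluster table; red points are the cells of the subcluster, open points all other ILC2s, and the x axis is in percent. All 12 red points lie to the right, with the widest gap for *Rel* in subcluster 7 (49.5% against 21.4%).

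In all 12 listings the share of cells was higher inside the subcluster than outside. This was also so for nearly all genes of the 5 subclusters that list a member, where 15 of 1322 listings, 1.13%, had a lower share inside. Over all listings the figure was 29.4%, most of them in subcluster 5, which lists no member. The gap ranged from 4.6 percentage points for *Nfkbia* in subcluster 3 to 28.1 for *Rel* in subcluster 7.

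Both subcluster 1 and subcluster 3 listed 15 genes, 4.13% of the 363 of subcluster 1 and 6.33% of the 237 of subcluster 3, and 3 of these 15 were *Nfkbia*, *Nfkbid* and *Tnfaip3*. The remaining 12 were *Btg2*, *Dusp1*, *Gadd45b*, *Hilpda*, *Ier2*, *Ifrd1*, *Nr4a1*, *Nr4a3*, *Pim1*, *Tent5a*, *Vps37b* and *Zfp36*. Of these 12, 5 (*Btg2*, *Dusp1*, *Ier2*, *Nr4a1* and *Zfp36*) are on a list of genes that tissue digestion can raise (dissociation stress genes). Subcluster 8 shared 106 genes with subcluster 1, 41.9% of its 253, and 23 with subcluster 3, 9.09%. Of ILC2 markers, *Il13*, a type 2 cytokine, was listed for subclusters 1, 2, 4, 7 and 8. *Gata3*, the transcription factor that defines ILC2s, and *Il1rl1* were listed for subclusters 0 and 3, and *Areg*, a growth factor, for 3, 7 and 8, where in subcluster 8 it missed the adjusted p-value cutoff of 0.05.

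For each member listed for 2 or more subclusters, the genes with the most similar listing pattern were found. This used the Jaccard index of the sets of subclusters, over 10 subclusters. *Nfkbiz* and *Relb*, each listed for 1 subcluster, were left out. Exactly 5 genes of the table were listed for subclusters 1, 3 and 8 and no other: *Nfkbia*, *Tnfaip3*, *Zfp36*, *Gadd45b* and *Nr4a3*. *Zfp36*, which encodes a protein that promotes decay of cytokine mRNAs, had log2 fold changes of 1.0, 0.64 and 0.54 in subclusters 1, 3 and 8 by the authors' deposited values. *Gadd45b*, a stress response gene, had 0.62, 0.77 and 0.86 there, and *Nr4a3*, an orphan nuclear receptor, had 0.30, 0.48 and 0.65. In subcluster 8, *Zfp36* and *Nr4a3* missed the adjusted p-value cutoff of 0.05, so that with it *Gadd45b* alone of these 3 kept the set of *Nfkbia* and *Tnfaip3*. *Tent5a*, which encodes a poly(A) polymerase, was the 1 other gene with the set of *Nfkbid*, followed by *Nr4a3* and *Vps37b* at an index of 0.67. For *Rel*, 9 other genes had its set, and those closest in fold change were *Rftn1*, *Castor1* and *Zyx*, of which *Castor1* missed that cutoff in subcluster 7.

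Genes of dissociation stress were read beside the members, from a list that holds no member, so the groups are not shown to be distinct. Of the 24 stress genes, 21 were in the table, which is the base of the shares of all genes given above. Against those shares, subcluster 3 listed 13, subcluster 7 listed 9, subcluster 1 listed 6 and subcluster 8 listed 4. In subcluster 8 only *Nr4a1* of its stress genes met the adjusted p-value cutoff of 0.05. *Zfp36*, with the set of *Nfkbia*, is a stress gene, and the stress genes *Ier3* and *Junb* are also on the pathway list. Subcluster 5 listed 12 stress genes and no member, and 38.0% of all genes in the table. The part of digestion in the member listings was not tested. Of markers of other cell types, subclusters 3, 8 and 9 listed none of the T cell, B cell, NK cell and ILC1, myeloid or basophil lists. Subcluster 1 listed *Trbc2* and *Cd79b*. Subcluster 7, with *Rel*, listed *Fcer1g* and *Tyrobp* of the 6 myeloid markers, *Trbc1* and *Nkg7*. The sort gate removed CD3e+, TCRb+ and CD11b+ cells, and the study also took out cells with such markers before the subclusters were made. The part of any that remained was not tested.

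**Figure D4:**
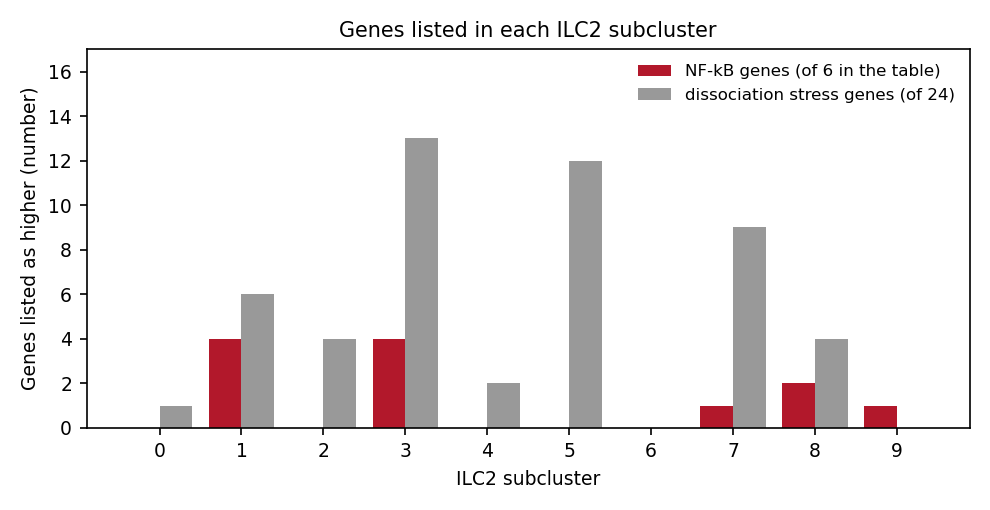
Number of genes listed as higher in each ILC2 subcluster, for the 6 NF-kB genes of the table (red) and the 24 dissociation stress genes (grey), of which 21 are in the table. Subclusters 1 and 3 list 4 NF-kB genes each, with 6 and 13 stress genes, while subcluster 5, which lists 38.0% of all genes in the table, lists 12 stress genes and no NF-kB gene.

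Of 80 other genes of the pathway, 33 were listed for at least 1 ILC2 subcluster, with 64 listings and a median log2 fold change of 0.46 by the authors' deposited values. Of all features that the p-values were adjusted for, 18.3% were in the table. None of *Rela*, *Nfkbib* and *Nfkbie*, the other subunit and inhibitors, was listed. Of 24 kinases and adapters 8 were listed, of 14 receptors 6, of 11 genes on a list of negative regulators 7, and of 28 target genes 12. The list of negative regulators includes *Birc2*, *Birc3* and *Pycard*, and the effect of each gene on the pathway was not tested. Of the 33 in the table, subcluster 3 listed 12, where 9.01% of all genes in the table were listed for it, subcluster 8 listed 11 (9.62% of all genes) and subcluster 1 listed 9 (13.8%). Subcluster 9 listed 6 (7.57%) and subcluster 7 listed 3 (10.3%). Subcluster 5, with no member, listed 13 (38.0%). All of those in subclusters 1, 3 and 7 met the adjusted p-value cutoff of 0.05. In subcluster 8 only *Gadd45b*, *Icam1*, *Map3k8* and *Traf1* met it, and in subcluster 9 only *Il1r2*. In subcluster 5, *Birc2*, *Cyld*, *Ier5*, *Ikbkb*, *Il18rap* and *Junb* missed it.

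Of the 11 pathway genes of subcluster 8, 6 were also listed for subcluster 1, as were 41.9% of all genes of subcluster 8. *Traf1*, an adapter of TNF receptors, was found in 82.0% of subcluster 1 cells against 59.9% of the others, with a log2 fold change of 0.69 by the authors' deposited values, and in 89.9% against 64.2% for subcluster 8, at 0.40. It was also listed for subcluster 5, where the share was lower inside, 32.0% against 65.6%. *Map3k8*, a kinase released from p105 on activation, was found in 57.3% of subcluster 8 against 26.0%, and in 36.0% of subcluster 1 against 23.8%. *Tab2*, an adapter of the kinase TAK1, was listed for both and for subclusters 2 and 6. *Il18r1*, a receptor chain for IL-18, was found in 34.8% of subcluster 1 against 18.7% and in 40.4% of subcluster 8 against 21.8%, and was also listed for subclusters 5 and 7. *Ccl5*, a chemokine, was listed for subclusters 1, 4 and 8. The ubiquitin ligase genes *Birc2* and *Birc3* were listed for subcluster 3, at log2 fold changes of 0.25 and 0.34 by the authors' deposited values, and again for subcluster 5 and subcluster 8. In subcluster 8, *Tab2*, *Il18r1*, *Ccl5* and *Birc3* missed the adjusted p-value cutoff of 0.05 there, as did *Birc2* in subcluster 5. *Il1rl1*, which encodes ST2, was listed for subclusters 0 and 3.

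Across all sorted cells, 5 members had 25 listings in 12 of the 21 cell types. The authors named the types. Basophil listed all 5 basophil markers, Treg and CD4 6 of 9 T cell markers, and ILC2 7 of 9 ILC2 markers. Macrophage listed 4 of 6 myeloid markers, with the B cell genes *Cd79b* and *Ighm*. ILC2_2 listed 3 of 9 ILC2 markers and the B cell genes *Igkc* and *Ighm*, with *Trbc1* and *Tbx21*. Plasma cell listed B cell markers, among them *Ms4a1*, which plasma cells largely lose, so that this gene goes against the name, and the cells are called here by the label alone. This table was made on 2000 features, and its values are not on the scale of the subcluster table: the share for *Rel* was 62.6% over every sorted cell in this table, against 21.8% over the ILC2s in the other. Such values may have been corrected across libraries, so they are given as differences of deposited values and not of expression. The members absent from it were not shown to be unchanged.

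Basophil listed *Nfkbia*, *Nfkbid*, *Nfkbiz* and *Tnfaip3*, 4 of the 5 members in the table, where 16.4% of all its genes were listed. Treg also listed 4 of 5, with *Rel* in place of *Nfkbid*, against 8.93%. ILC1_ILC3 listed *Nfkbia*, *Nfkbid* and *Nfkbiz*, 3 of 5, against 13.4%, and gdT_TypeIII_ITGAE listed *Nfkbia*, *Nfkbid* and *Tnfaip3*, 3 of 5, against 11.7%. CD4 (7.80% of all genes) and gdT_TypeIII_CD163l1 (11.4%) listed *Nfkbia* and *Tnfaip3*, and ILC2_2 (11.9%) listed *Nfkbid* and *Nfkbiz*. A single member was listed for ILC2 (*Nfkbiz*, 8.10%), MMP_LMPP (*Nfkbid*, 24.0%), Macrophage (*Rel*, 17.3%), Plasma cell (*Rel*, 12.2%) and CD8_Naive (*Rel*, 11.8%). The other 9 types listed none, and the median log2 fold change of the 25 listings was 0.49 against 0.60 over all 4422 listings by the authors' deposited values.

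Of the types that listed them, Basophil stood highest for *Nfkbiz*, *Nfkbia*, *Tnfaip3* and *Nfkbid*. *Nfkbiz* had a log2 fold change of 3.23 there by the authors' deposited values, with 99.7% of basophils against 79.5% of other cells, and *Nfkbia* had 3.02, with 100% against 93.3%. For *Tnfaip3* the log2 fold change was 1.65 and for *Nfkbid* 0.93 by the authors' deposited values. The next type for *Nfkbia* was Treg at 1.30, followed by ILC1_ILC3 at 0.73, gdT_TypeIII_CD163l1 at 0.57, gdT_TypeIII_ITGAE at 0.49 and CD4 at 0.40. For *Tnfaip3* the order after Basophil was Treg at 1.09, CD4 at 0.45, gdT_TypeIII_CD163l1 at 0.37 and gdT_TypeIII_ITGAE at 0.31. Basophil also listed 11 of the 24 dissociation stress genes, as did gdT_TypeIII_ITGAE, and Treg listed 5, and their part was not tested. Basophils made up 1.07% ± 0.00702 (standard error of the fit) of the sorted cells and Treg 2.06% ± 0.0235.

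The main type ILC2, 43.2% ± 0.0133 (standard error of the fit) of the sorted cells, listed *Nfkbiz* alone. Here, 88.8% of the ILC2s had a value above 0 against 72.8% of all other cells, with a log2 fold change of 0.33 by the authors' deposited values. The subcluster table gave 60.9% of ILC2s for the same gene, so the shares here are not read as detection. *Nfkbid*, in contrast, was listed for MMP_LMPP with 99.2% of the cells against 57.4%, and for ILC1_ILC3 with 88.5% against 57.4%.

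*Rel* was listed for 4 types. By the authors' deposited values, its log2 fold change was 1.83 in Plasma cell, 0.77 in Treg, 0.41 in Macrophage and 0.37 in CD8_Naive, and only Treg listed it with another member. Its value was above 0 in 90.6% of the cells named Plasma cell against 62.4%, and in 97.2% of Macrophage against 60.9%. In CD8_Naive the share was lower, 49.1% against 63.0%, although the average was higher.

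**Figure D5:**
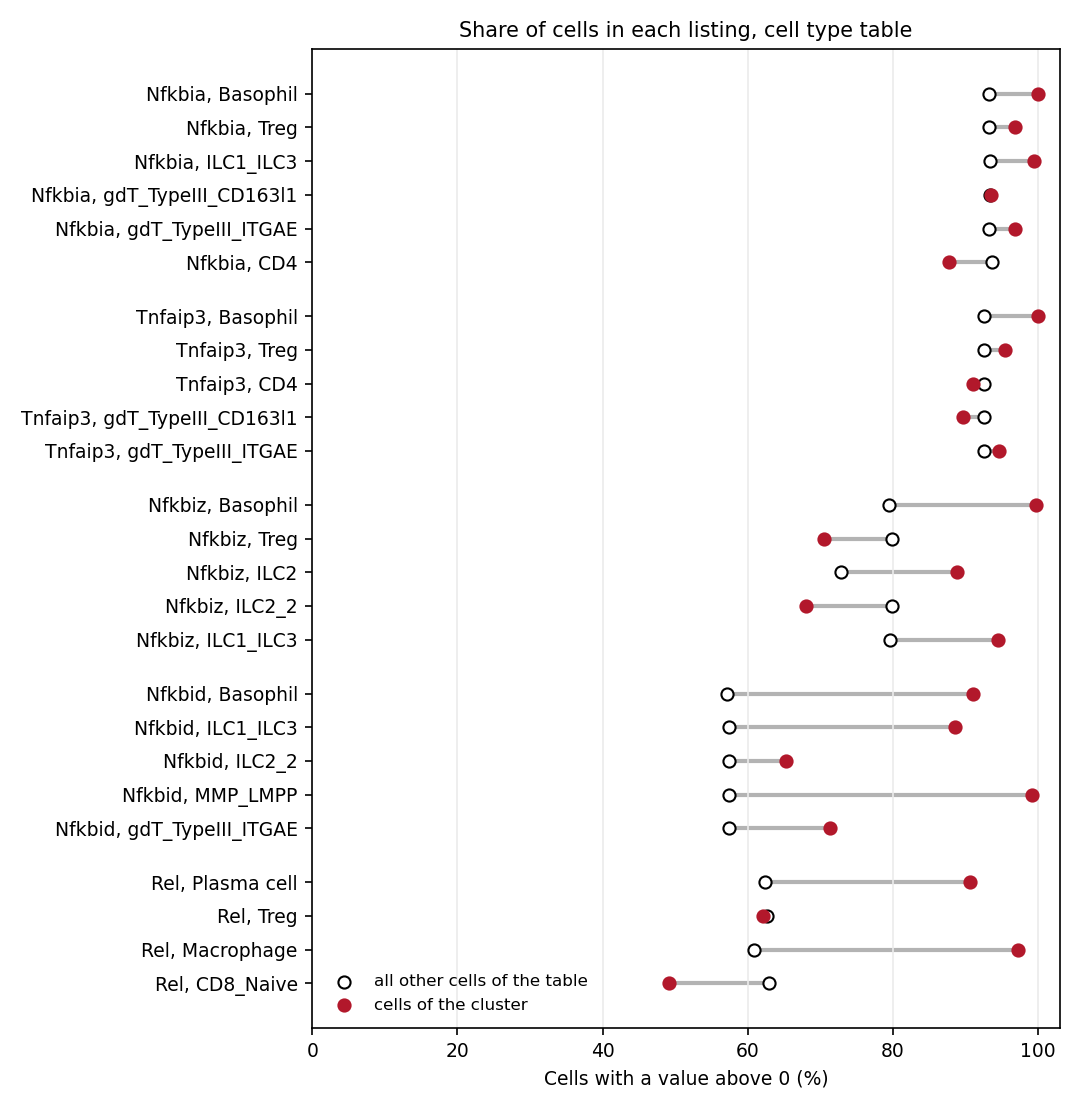
Percentage of cells above 0 for each of the 25 member listings of the cell type table, ordered within a gene by log2 fold change; red points are the cells of the type, open points all other sorted cells, and the x axis is in percent. Basophil lies at 91.0% or above for the 4 genes it lists, and 7 red points, such as *Rel* in CD8_Naive, lie left of the open point.

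Of the 25 listings, 7 had a lower share inside the type than outside: *Rel* in CD8_Naive and Treg, *Nfkbia* in CD4, *Nfkbiz* in ILC2_2 and Treg, and *Tnfaip3* in CD4 and gdT_TypeIII_CD163l1. Over all listings of the table this was so for 16.3%, and over those of the 12 types that list a member for 17.2%. The listings of *Nfkbid* in ILC2_2 and of *Nfkbiz* in Treg missed the adjusted p-value cutoff of 0.05 by the authors' deposited values.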

How the data were processed

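Cells were aligned and counted by the authors with Cell Ranger on mm10, cells with few genes were removed, counts per cell were scaled and log transformed, and clusters and markers were found in Seurat over the 4 libraries together. Their deposited files hold, per gene and cluster, the fraction of cells above 0 inside and outside, the log2 fold change, and the authors' p-values over cells from Seurat's FindAllMarkers function, whose test is not named in the sources used here; by the values, adjusted p-values are p times the number of features. Fold changes are quoted as the authors' values, the p-values entered only as a cutoff in alternatives, with none computed here. No doublet caller could be run on tables without cells.

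Cluster sizes were solved by least squares, using every gene with 2 or more listed clusters (768 in the subcluster table and 1045 in the cell type table), as the size that gives 1 share over all cells for every cluster of a gene. Levels relative to all cells follow from size and fold change, read as a ratio of means plus 1. The solver was run on simulated data of known sizes, and the outcome is not given here. Gene positions are from GENCODE M21 (GRCm38, the build of mm10). All members are named with every listing. Of the pathway list, the 8 genes sharing most subclusters with a member are named, among those in a subcluster with 3 or more members (the last, *Birc2*, tied with 12 others and taken by name). The 3 genes most alike in pattern are named for each member listed for 2 or more subclusters. The genes common to subclusters 1 and 3, and *Pycard*, *Tnf*, *Lta*, *Csf2* and *Il2*, were named after their values were seen. So were the further genes named for meeting or missing the adjusted p-value cutoff. Members and lists were chosen with earlier results of these data known. Python 3.11.15, numpy 2.4.6 and pandas 2.3.3 were used.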

Additional observations from a re-analysis of the deposited data

How the results depend on the processing

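When only log2 fold changes of 0.5 or more were kept, the member listings fell from 12 to 4 in the ILC2 subcluster table (*Nfkbia* in 1 and 8, *Nfkbiz* and *Tnfaip3* in 3) and from 25 to 12 in the cell type table, where requiring a gap in shares of 0.1 or more left 9. Without solving for size, the median log2 value of the listings was 0.45 in place of 0.37 in the subcluster table and 0.49 in place of 0.48 in the other. These follow from the construction of each alternative. An adjusted p-value under 0.05 left 11 and 23 listings, removing *Relb* from the first and *Nfkbid* in ILC2_2 and *Nfkbiz* in Treg from the second. Of 33 counts of clusters per member, 21 stayed within 1.5 times, and all 22 shares over all cells moved by less than the rounding of the deposited shares. Under the p-value filter, 1 of the 3 genes most like *Nfkbia* and 1 of those most like *Tnfaip3* stayed. No paired analysis was possible because no group had a second library and neither table gives libraries separately. The tables give no depth, and subclusters 7, 8 and 9 rest on the fewest ILC2s.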

Other observations

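Of the 80 other pathway genes, 32 were in the cell type table, with 133 listings, and 22 of the 28 target genes were among them. This table holds 84.0% of the 2000 features its p-values were adjusted for, and how many of the 80 were among those features was not tested. Of the 32, ILC1_ILC3 listed 16, where 13.4% of all genes in the table were listed for it, among them *Tnf*, *Lta*, *Csf2* and *Il2*, which encode cytokines, and *Traf1* and *Map3k8*, of which *Il2* and *Map3k8* missed an adjusted p-value of 0.05 by the authors' deposited values. This type also listed 3 of the 5 members and 9 of the 24 dissociation stress genes. gdT_TypeIII_CD163l1 listed 12 (11.4% of all genes), including *Tnf* and *Lta*, with 2 members and 3 stress genes. Basophil, with 4 members, listed 8 (16.4%). The type ILC3 listed 7 of the pathway genes (9.11%) and no member, and 5 of the 9 T cell markers. The type gdT_TypeII listed none of the T cell markers and 4 of the 9 ILC2 markers, which goes against its name. In addition, the type spelled Prolifelation cell, with 513 listings (30.6%), listed 1 pathway gene, *Pycard*, and no member. *Gadd45b*, which had the set of *Nfkbia* among ILC2 subclusters, was listed for ILC1_ILC3 and gdT_TypeIII_CD163l1, which listed *Nfkbia*, and for ILC2, ILC3 and gdT_TypeII, which did not, and its log2 fold change in ILC2 was 0.92 by the authors' deposited values.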
